A study of Mus musculus with 8 samples.

Results

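The 9 genes described here encode fatty acid desaturases and elongases: the desaturases Scd1, Scd2, Fads1 and Fads2 and the elongases Elovl1, Elovl2, Elovl3, Elovl5 and Elovl6. They were taken from the array by gene symbol. Each of the 9 was measured by 1 transcript cluster, the probe group that the array assigns to a gene, out of 35556 clusters. The 21789 clusters with 1 gene symbol stood for 19938 named genes. All 9 were among the 11963 genes tested, the 60% with the highest mean signal. Livers came from male C57Bl/6J mice in 4 groups of 10. LFD mice ate a low-fat diet with 13% of calories as fat and drank deionized water. LFD+As mice ate the same diet and drank water holding 3 mg/L inorganic arsenic, given as sodium arsenite. HFD mice ate a high-fat diet with 42% of calories as fat and drank plain deionized water, and HFD+As mice had that diet together with the arsenite water. The protocols give 10 weeks of feeding and exposure, whereas the source label gives 90 days, and the age of the mice was not given in the sources used here. RNA was extracted mouse by mouse and mixed in equal amounts from 5 mice per array, so each group had 2 pools, called replicate 1 and replicate 2. Every p-value therefore measures the spread between pools and not between mice.

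Desaturases insert a double bond into a fatty acyl-CoA, and elongases add a carbon pair to its chain, both in the endoplasmic reticulum. In liver, Scd1 and Elovl6 act on the saturated products of de novo synthesis, whereas Fads1, Fads2, Elovl5 and Elovl2 turn dietary linoleic and alpha-linolenic acid into long polyunsaturated fatty acids such as arachidonic and docosahexaenoic acid. Transcription of many of these genes is known to be driven by the sterol regulatory element binding protein SREBP-1c and the carbohydrate response factor ChREBP, and to be restrained by polyunsaturated fat.

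All signals below are the deposited log2 values, on which 1 unit is a doubling. Array medians lay between 7.08 and 7.18 and single values between 1.38 and 14.8. The hepatocyte marker genes were bright on every array, with Alb, which encodes albumin, between 14.44 and 14.48. The arrays differed in how their deviations tracked the genomic span of the genes. The rank correlation was between 0.138 and 0.346 in LFD and LFD+As, and -0.454 and -0.293 in the HFD+As pools. In the HFD pools it was 0.245 and -0.136, so these 2 pools differed in sign. In HFD+As most genes also lay lower, with 66.6% of the tested genes below LFD and a median log2 fold change of -0.10 over all genes. Member values are to be read against that median. In RNA from whole liver, fewer cells of a type and less RNA per cell cannot be told apart.

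**Figure D1:**
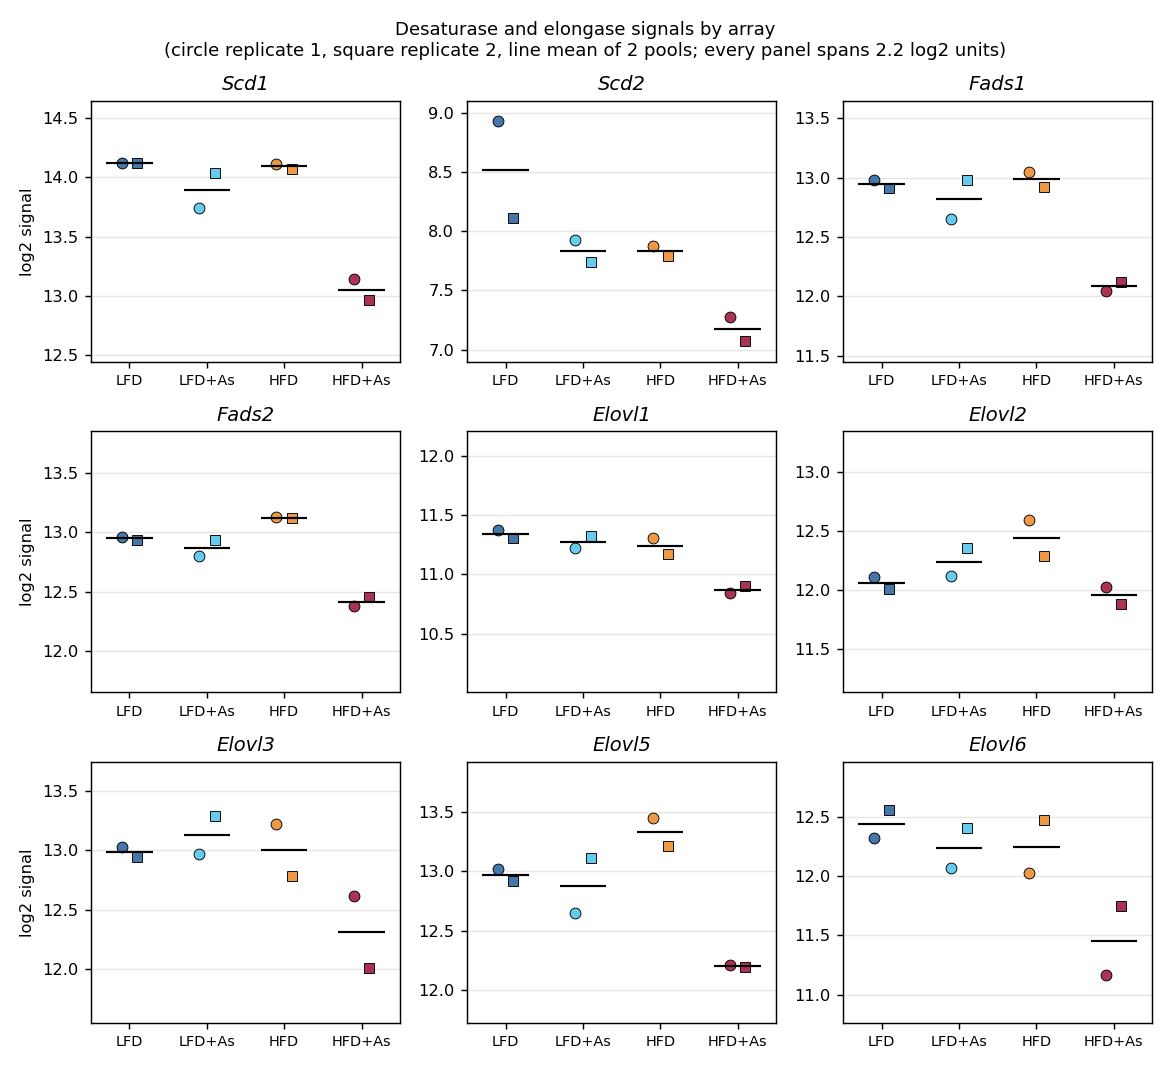
Log2 signal (y axis) of each of the 9 genes in the 4 groups (x axis). Circles are replicate 1, squares replicate 2, and each point is 1 pool of 5 mice. Lines are means of 2 pools, and every panel spans the same number of log2 units. The HFD+As pools are the lowest for every gene except Elovl2, where LFD pools at 12.01 and 12.11 overlap HFD+As pools at 11.88 and 12.03.

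Scd1, the main hepatic stearoyl-CoA desaturase, which makes oleic and palmitoleic acid, was among the brightest genes on the arrays, above 99.8% of all named genes by mean signal. Its log2 signal was 14.12 in both LFD pools, 13.75 and 14.04 in those of LFD+As, 14.12 and 14.07 in those of HFD, and 13.14 and 12.97 in those of HFD+As. Both HFD+As pools lay well below the 6 other pools, which spanned little. Against LFD, Scd1 fell by 1.07 log2 units in HFD+As (SE 0.13, limma adjusted p = 0.00111, 2 pools per group), to 47.8% of the LFD signal. It was also lower than in HFD, by 1.04 (adjusted p = 0.00354), and than in LFD+As, by 0.84 (adjusted p = 0.00736).

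Scd2, the stearoyl-CoA desaturase isoform known mainly from brain and from neonatal liver, read 8.92 and 8.11 in the LFD pools, 7.93 and 7.74 in those of LFD+As, 7.88 and 7.79 in those of HFD, and 7.28 and 7.07 in those of HFD+As. The 2 LFD pools stood further apart for Scd2 than for any other of the 9 genes, and replicate 1 was the higher. By mean signal, 7.84, Scd2 was the dimmest of the 9 genes, and the lowest mean tested was 6.97. It was not among the top 40% of genes by mean. Scd2 fell by 1.34 in HFD+As against LFD (SE 0.20, adjusted p = 0.00312). Without LFD replicate 1 this was -0.93, and without LFD replicate 2 it was -1.75, called in both cases. Each exposure alone gave the same value against LFD, -0.68 with arsenite (95% confidence interval -1.11 to -0.25, adjusted p = 0.707) and -0.68 with the high-fat diet (-1.11 to -0.25, adjusted p = 0.208). Neither passed. In both cases the arrays lay below LFD without overlap, as for 15.8% of all tested genes in LFD+As and 16.5% in HFD. Those values also rested on LFD replicate 1: without it they were -0.27 and -0.28, whereas without LFD replicate 2 both were -1.09 and passed (adjusted p = 0.0347 and 0.0266). Against HFD and against LFD+As, HFD+As stood at -0.66 for both, with adjusted p = 0.0737 and 0.0527. The Scd genes lie in a row in the mouse genome, in the order Scd3, Scd2, Scd4 and Scd1, and their transcripts are similar. Probes of Scd2 may therefore also read the far more abundant Scd1 transcript, which was not tested.

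Fads1, the delta-5 desaturase that makes arachidonic and eicosapentaenoic acid, gave a log2 signal of 12.98 and 12.91 in the LFD pools, 12.65 and 12.98 in those of LFD+As, 13.05 and 12.92 in those of HFD, and 12.05 and 12.12 in those of HFD+As. The pools of the first 3 groups overlapped one another, and the HFD+As pools lay apart below them. Fads1 fell by 0.86 against LFD (SE 0.13, adjusted p = 0.00312), to 55.1% of the LFD signal, by 0.90 against HFD (adjusted p = 0.00644) and by 0.73 against LFD+As (adjusted p = 0.0138).

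Fads2, the delta-6 desaturase at the entry of the polyunsaturated pathway, lies next to Fads1 in the genome, between it and Fads3. It read 12.96 and 12.94 in the LFD pools, 12.80 and 12.94 in those of LFD+As, 13.13 and 13.12 in those of HFD, and 12.38 and 12.45 in those of HFD+As. HFD pools were the highest and HFD+As pools the lowest, so the decrease was larger against HFD, 0.71 (SE 0.11, adjusted p = 0.0132), than against LFD, 0.53 (adjusted p = 0.0096), or LFD+As, 0.45 (adjusted p = 0.0287). In HFD alone Fads2 stood at 0.17 above LFD (95% confidence interval -0.069 to 0.41, adjusted p = 0.652).

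Elovl6, which elongates palmitate to stearate and so feeds Scd1, read 12.32 and 12.56 in the LFD pools, 12.07 and 12.40 in those of LFD+As, 12.02 and 12.47 in those of HFD, and 11.17 and 11.74 in those of HFD+As. Replicates of Elovl6 differed more than those of the desaturases Fads1 and Fads2, but the HFD+As pools did not reach any other pool. Elovl6 fell by 0.99 against LFD (SE 0.19, adjusted p = 0.00792), by 0.79 against HFD (adjusted p = 0.0457) and by 0.78 against LFD+As (adjusted p = 0.0294).

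Elovl3, an elongase of saturated and monounsaturated chains whose liver transcript is known to be male-biased and to cycle through the day, read 13.03 and 12.95 in the LFD pools, 12.97 and 13.29 in those of LFD+As, 13.22 and 12.78 in those of HFD, and 12.61 and 12.01 in those of HFD+As. The lowest pool, HFD+As replicate 2, weighed on its value. Elovl3 fell by 0.68 against LFD (SE 0.19, adjusted p = 0.0313) and by 0.82 against LFD+As (adjusted p = 0.0259), and was at -0.69 against HFD (adjusted p = 0.0605). Without HFD+As replicate 2 the value against LFD was -0.37 and was not called.

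Elovl1 extends saturated and monounsaturated chains to very long ones used in sphingolipids. In HFD+As it had the smallest called decrease of the 9 genes against LFD, and likewise against LFD+As. Its signal was 11.37 and 11.31 in the LFD pools, 11.23 and 11.32 in those of LFD+As, 11.31 and 11.17 in those of HFD, and 10.84 and 10.90 in those of HFD+As. Elovl1 fell by 0.47 against LFD (SE 0.11, adjusted p = 0.0165), to 72.2% of the LFD signal, and by 0.41 against LFD+As (adjusted p = 0.0413). Against HFD it stood at -0.37 (adjusted p = 0.076).

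Elovl5 and Elovl2 both elongate polyunsaturated chains, Elovl5 at earlier and Elovl2 at later steps. Elovl5 read 13.02 and 12.92 in the LFD pools, 12.65 and 13.11 in those of LFD+As, 13.45 and 13.21 in those of HFD, and 12.21 and 12.20 in those of HFD+As. The HFD pools were the highest of all and the HFD+As pools the lowest. Against HFD, Elovl5 fell by 1.13 (SE 0.15, adjusted p = 0.00354), to 45.8% of the HFD signal. This was the largest change of the 9 genes in that comparison and the decrease of rank 10 among all 11963 genes. Elovl5 also fell by 0.76 against LFD (adjusted p = 0.00735) and by 0.68 against LFD+As (adjusted p = 0.022).

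Elovl2, which is needed for docosahexaenoic acid, read 12.11 and 12.01 in the LFD pools, 12.12 and 12.35 in those of LFD+As, 12.59 and 12.29 in those of HFD, and 12.03 and 11.88 in those of HFD+As. HFD pools were again high, but HFD+As pools overlapped those of LFD. Elovl2 was the 1 gene of the 9 that did not pass in any of the 8 comparisons made. The value against LFD was -0.11, with a 95% confidence interval of -0.40 to 0.19 (adjusted p = 0.649). Against HFD it was -0.48 (interval -0.78 to -0.19, adjusted p = 0.0611), and it passed there without HFD replicate 2 (-0.64, adjusted p = 0.0308) and with trended and robust variance moderation (adjusted p = 0.0236). Against LFD+As it was -0.28 (-0.57 to 0.0089, adjusted p = 0.191). Whether Elovl2 differs from the other elongases was not tested.

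Promoter sequences could be set beside these patterns for 5 of the 9 genes: Fads2, Elovl1, Elovl2, Elovl5 and Elovl6. The 250 bases before the RefSeq start site (build GRCm38.p6) are shown for the elongase with the largest decrease against HFD, the one with the largest decrease against LFD, the delta-6 desaturase, and Elovl2, which did not pass. Each reads 5′ to 3′ on the gene's own strand, and capitals mark matches to the motifs searched.
Elovl5 (chr9:77917115-77917364, + strand): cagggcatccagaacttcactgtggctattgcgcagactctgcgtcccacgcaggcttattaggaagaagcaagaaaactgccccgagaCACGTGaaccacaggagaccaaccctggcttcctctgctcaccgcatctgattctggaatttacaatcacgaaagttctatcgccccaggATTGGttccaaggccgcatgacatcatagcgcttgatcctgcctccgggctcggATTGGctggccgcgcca
Elovl6 (chr3:129532136-129532385, + strand): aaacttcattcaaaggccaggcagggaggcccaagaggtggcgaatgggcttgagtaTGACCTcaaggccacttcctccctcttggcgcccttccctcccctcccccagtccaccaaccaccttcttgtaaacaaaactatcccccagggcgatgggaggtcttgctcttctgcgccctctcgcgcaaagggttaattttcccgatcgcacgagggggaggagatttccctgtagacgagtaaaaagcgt
Fads2 (chr19:10101504-10101753, - strand): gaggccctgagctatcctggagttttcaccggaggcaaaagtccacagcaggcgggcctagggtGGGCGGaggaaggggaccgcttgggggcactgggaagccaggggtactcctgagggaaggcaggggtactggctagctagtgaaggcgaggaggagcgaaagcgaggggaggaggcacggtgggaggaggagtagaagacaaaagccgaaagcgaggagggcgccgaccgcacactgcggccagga
Elovl2 (chr13:41220404-41220653, - strand): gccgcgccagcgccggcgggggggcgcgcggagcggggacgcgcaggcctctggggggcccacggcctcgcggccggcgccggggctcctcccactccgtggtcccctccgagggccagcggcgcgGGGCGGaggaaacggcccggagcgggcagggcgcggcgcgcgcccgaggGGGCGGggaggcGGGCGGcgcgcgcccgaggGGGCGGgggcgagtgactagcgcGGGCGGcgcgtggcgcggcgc

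The motifs were searched on both strands. They were a sterol regulatory element type, TCACNCCAC, the NF-Y box CCAAT, the E box CACGTG, the GC box GGGCGG and the nuclear receptor motif TGACCT. In Elovl5 the capitals are 1 E box, 161 to 156 bases before the start, and 2 CCAAT boxes on the opposite strand, at 71 to 67 and 17 to 13 bases. Elovl6 held 1 TGACCT, 193 to 188 bases before the start, and Fads2 held 1 GC box at 186 to 181 bases. Elovl2 has 2 windows for different start sites. The first, shown here, held 5 GC boxes, and the second, not shown, held none of the motifs. In the first window of Elovl1, not shown, there were 5 GC boxes and 1 CCAAT box, and these overlapped at 2 bases. No TCACNCCAC was in these windows of the 5 genes. Of 32851 promoter windows in the mouse table, 33.8% held CCAAT, 32.7% GGGCGG, 14.0% TGACCT, 6.02% CACGTG and 1.05% TCACNCCAC. The matches describe these letters and mark no binding site.

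The comparison of HFD+As with LFD asks what the diet and arsenite did together. Of the 9 genes, 8 fell, namely all 4 desaturases and the elongases Elovl1, Elovl3, Elovl5 and Elovl6, where 12.4% of all tested genes were called lower (1479 genes). The median over the 9 genes was -0.76, against -0.10 over all genes. The HFD+As pools lay below the LFD pools without overlap for 8 genes, as for 41.4% of all tested genes. Median changes were -0.96 over the desaturases and -0.68 over the elongases. The members ran from Scd2, the lowest at 39.5% of the LFD signal, to Elovl2 at 92.9%. The calls rest on testing named genes: with all 35556 clusters as features the fold changes were the same, but 0 genes passed, and the 8 members stood at adjusted p between 0.0972 and 0.216. The Elovl3 call was also lost in 5 other settings, at adjusted p between 0.0529 with arrays centred on their medians and 0.13 with trended and robust moderation, and that of Elovl1 with centred arrays (adjusted p = 0.0502).

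**Figure D2:**
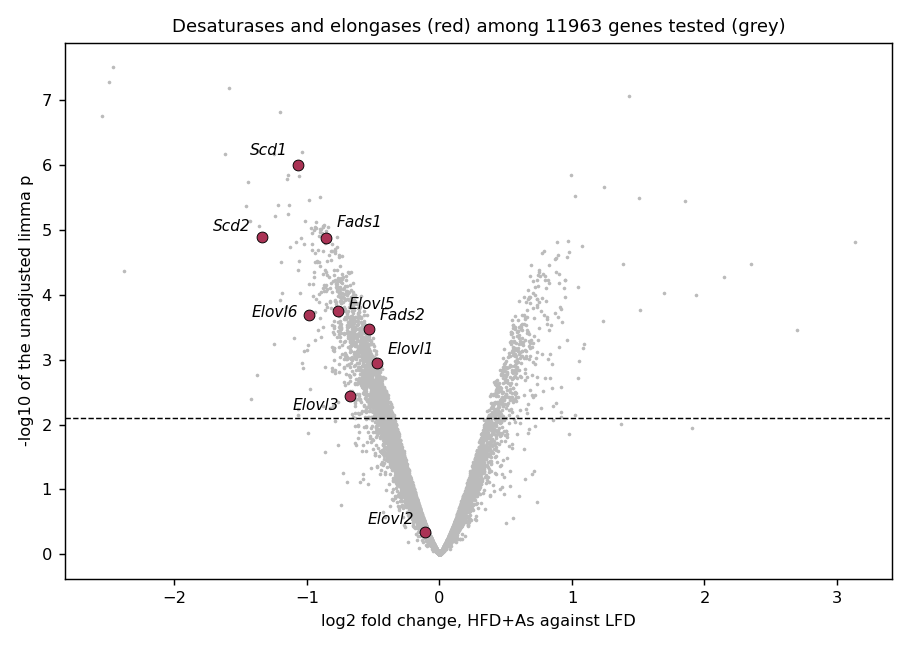
Log2 fold change in HFD+As against LFD (x axis) and -log10 of the unadjusted limma p (y axis) for 11963 genes, with the 9 desaturase and elongase genes in red. The dashed line marks the p at which genes pass the adjusted threshold of 0.05. Of the red points 8 lie above the line on the lower side, and Elovl2 lies below it at -0.11.

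HFD+As against HFD asks what arsenite added to the high-fat diet. Scd1, Fads1, Fads2, Elovl5 and Elovl6 fell, 5 of 9 genes, where 3.25% of all genes were called lower. The other 4 had values between -0.69 for Elovl3 and -0.37 for Elovl1 and did not pass. Pools did not overlap for any of the 9 genes, as for 45.8% of all tested genes. The median was -0.71, against -0.13 over all genes. The Elovl6 call was the least firm: it was lost with the trend along gene span removed from each array (-0.69, adjusted p = 0.0769) and in 5 other settings, at adjusted p between 0.0592 and 0.102, besides the fit on all clusters. The other 4 calls were lost in that last fit and in no other of the settings that kept all arrays.

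HFD+As against LFD+As asks what the high-fat diet added under arsenite. Of the 9 genes 7 fell, with Scd2 and Elovl2 not passing, where 8.43% of all genes were called lower. All 9 lay below without overlap, as did 43.8% of all genes, and the median was -0.68 against -0.09. This comparison leaned on LFD+As replicate 2, without which 17 of all genes and 0 of the 9 were called by limma, at adjusted p from 0.108 upward among the 7. With arrays centred on their medians, or with no filter on low signals, Scd1 and Fads1 were the 2 members called. Of all called genes in it, 82.2% were lower, and 71.7% after quantile normalization or 68.7% with arrays centred on their medians. HFD+As takes part in these 3 comparisons and LFD in several, so their values are not independent of one another.

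With arsenite alone or the high-fat diet alone, 0 of the 9 genes passed with limma. For LFD+As against LFD, where 0.0669% of all genes were called in either direction, values ran from -0.68 for Scd2 to 0.18 for Elovl2, and 1 gene, Scd2, had an unadjusted p under 0.05, as did 3.35% of all genes. Scd1 stood at -0.23 with arsenite alone (95% confidence interval -0.50 to 0.043), so a decrease of up to 0.50 is not excluded there. For HFD against LFD, where 0.46% were called, values ran from -0.68 for Scd2 to 0.38 for Elovl2, and 3 genes, Scd2, Elovl2 and Elovl5, had an unadjusted p under 0.05, as did 10.3% of all genes. In that comparison Elovl2 (0.38, interval 0.086 to 0.67, adjusted p = 0.334), Elovl5 (0.36, interval 0.041 to 0.68, adjusted p = 0.419) and Fads2 lay above LFD without overlap, as did 21.7% of all genes. Fads1, of the same polyunsaturated pathway, stood at 0.043 with overlapping pools. By contrast Scd1 differed from LFD by -0.026, with an interval of -0.30 to 0.25.

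**Figure D3:**
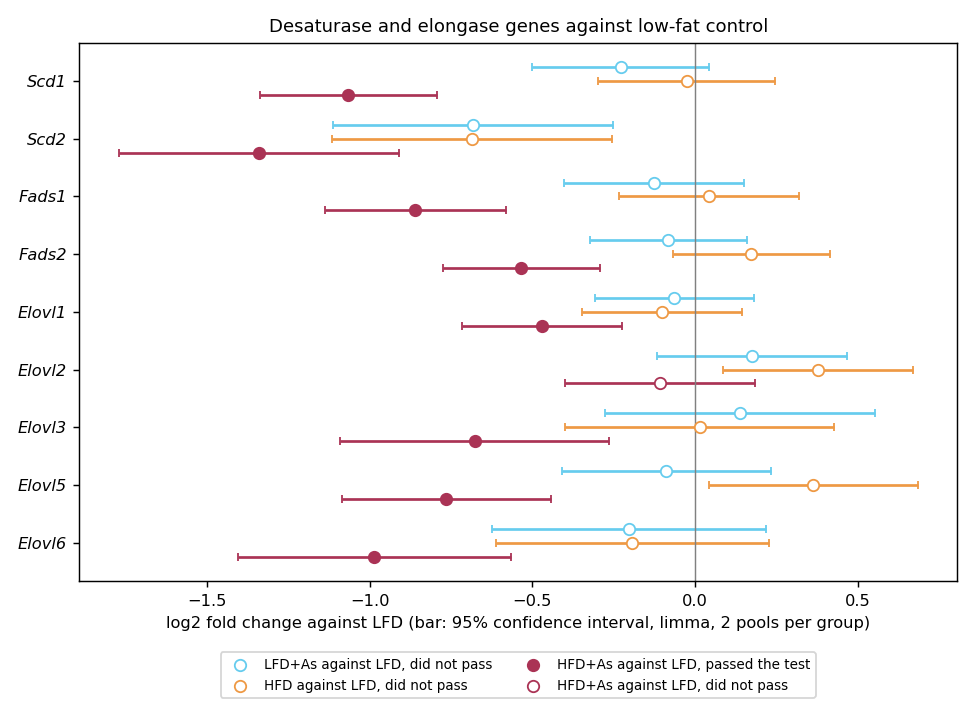
Log2 fold change against LFD (x axis) for each gene (y axis) in LFD+As, HFD and HFD+As. Bars are 95% confidence intervals from limma with 2 pools per group, and filled points passed the adjusted threshold. Filled points are 8 of the 9 HFD+As values, from -1.34 for Scd2 to -0.47 for Elovl1, and no value of arsenite or diet alone is filled.

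The interaction is the arsenite effect on the high-fat diet minus that on the low-fat diet. It tests whether the 2 exposures add up on the log2 scale, that is, multiply as fold changes. With limma 0 of 11963 genes passed, while 1659 genes (13.9%) and 6 of the 9 members had an unadjusted p under 0.05. These 6 were Scd1, Fads1, Fads2, Elovl2, Elovl3 and Elovl5. Elovl5 had the largest value, -1.04 (95% confidence interval -1.49 to -0.58, adjusted p = 0.117). Scd1 stood at -0.81 (-1.20 to -0.43, adjusted p = 0.149) and Fads1 at -0.78 (-1.17 to -0.38, adjusted p = 0.17). Scd2 stood at 0.027, with an interval of -0.58 to 0.64. Without LFD+As replicate 1, Elovl5 passed (-1.27, adjusted p = 0.0244). With trended and robust variance moderation 17 genes passed, among them Scd1, Elovl5 and Fads1 (adjusted p = 0.0126, 0.03 and 0.044). A larger decrease on the high-fat diet was thus called for 3 genes under that setting and for 0 of the 9 in the fit reported here.

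Averaged over both waters, 4 arrays against 4, the high-fat diet went with lower Scd1 (-0.43, adjusted p = 0.0185), Scd2 (-0.67, adjusted p = 0.0187), Fads1 (-0.35, adjusted p = 0.038) and Elovl6 (-0.49, adjusted p = 0.0478). These were 4 of 9 genes, where 4.66% of all genes were called lower. Averaged over both diets, arsenite went with lower Scd1 (-0.63, adjusted p = 0.0103), Fads1 (-0.51, adjusted p = 0.0271), Elovl5 (-0.61, adjusted p = 0.0271) and Fads2 (-0.39, adjusted p = 0.0463), again 4 of 9, where 0.443% were called lower. Each average takes in the HFD+As pools, and the single exposures gave 0 calls among the 9 genes. The averages also rested on single arrays. For diet, 0 of the 9 genes passed without HFD replicate 2 (0.727% of all genes). There was 1 without LFD replicate 2 (0.786%), LFD+As replicate 2 (1.23%) or HFD+As replicate 1 (1.02%), and 2 without LFD replicate 1 (3.06%). For arsenite, 0 passed without LFD replicate 1, when 1 gene passed in all. There was 1 without LFD replicate 2 (12 of all genes), LFD+As replicate 1 (30), HFD replicate 1 (28), HFD+As replicate 1 (19) or HFD+As replicate 2 (35). Calls over all genes thus dropped in the same fits. The member called for arsenite without LFD replicate 2 was Scd2 (-0.87), which is not among those named above for arsenite. In the other arsenite fits with 1 member called it was Scd1.

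The calls in HFD+As against LFD were not equally firm when 1 array was left out. Scd1 (-1.15 to -0.98), Scd2 (-1.75 to -0.93) and Fads1 (-0.90 to -0.82) passed in all 8 such fits. Fads2 and Elovl5 were lost when LFD replicate 1 or HFD+As replicate 1 was missing. Elovl6 was lost when LFD replicate 2 or HFD+As replicate 1 was missing. Elovl1 and Elovl3 were lost with either LFD pool missing, and also without HFD+As replicate 1 for Elovl1 and without HFD+As replicate 2 for Elovl3. Leaving out LFD replicate 1 left 4 called members (357 of all genes), and leaving out LFD replicate 2 left 5 (776 genes). Leaving out HFD+As replicate 1 left 4 (206 genes), and its replicate 2 left 7 (1638 genes), beside 1909 genes with all arrays. Against HFD, Scd1 and Elovl5 passed in all 8 fits, and 2 members passed when replicate 1 of HFD or of HFD+As was missing, where 25 and 24 of all genes passed. Fads1 and Fads2 were lost in those 2 fits, and Elovl6 was lost in 5 of the 8, those without either LFD pool, either HFD pool or HFD+As replicate 1. Elovl3 was gained without HFD replicate 2 (-0.91, adjusted p = 0.0284) or either LFD+As pool, and Scd2 without either LFD pool (adjusted p = 0.0443). Against LFD+As, 2 members passed without HFD+As replicate 1 (31 of all genes), and Scd2 passed without either LFD pool (adjusted p = 0.0309). Every member kept its sign in all 8 fits of HFD+As against LFD.

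**Figure D4:**
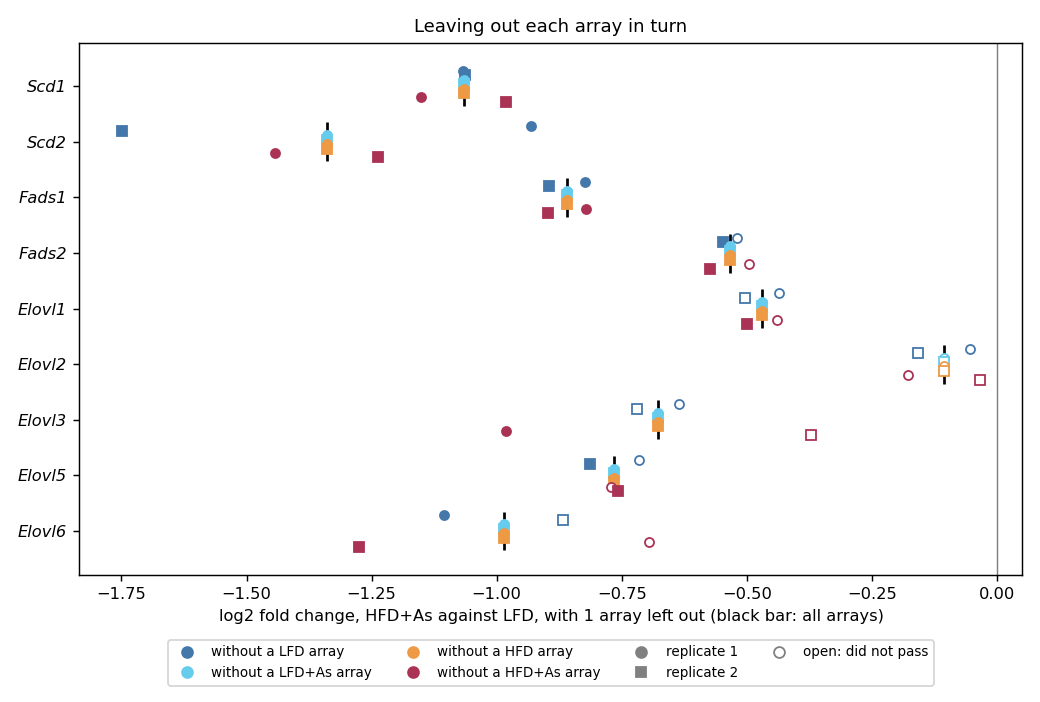
Log2 fold change in HFD+As against LFD (x axis) for each gene (y axis) with 1 of the 8 arrays left out. Colours show the group of the array left out, circles and squares its replicate, filled symbols pass the adjusted threshold, and black bars are the values with all arrays. Scd1, Scd2 and Fads1 are filled throughout, whereas Elovl3 moves to -0.37 without HFD+As replicate 2.

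Other genes of the pathway were taken from lists, whose counts stand beside 12.4% of all tested genes called lower and 3.59% called higher in HFD+As against LFD. Among the remaining desaturases and elongases, Scd3, Scd4, Elovl4, Elovl7 and Degs2 were too dim to be tested, and of Fads3, Fads6 and Degs1 none passed with limma in HFD+As against LFD, with values from -0.26 for Fads6 to -0.23 for Degs1. At an unadjusted p under 0.05 there was 1 of these 3, Fads6. The electron donors and later steps of the elongation cycle were mixed: 3 of 9 tested genes fell, and the list's median was -0.16. Cyb5r3, the cytochrome b5 reductase that supplies desaturases with electrons, fell by 0.86 (adjusted p = 0.00312), the outer mitochondrial cytochrome Cyb5b by 0.58 (adjusted p = 0.0152), and Tecr, the last enzyme of the elongation cycle, by 0.42 (adjusted p = 0.0323). Cyb5r3 read 13.35 and 13.33 in LFD and 12.44 and 12.53 in HFD+As.

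Of 10 genes listed under fatty acid supply, 5 fell in HFD+As against LFD, with a median of -0.69. Acacb, the mitochondrial acetyl-CoA carboxylase, fell by 1.46 (adjusted p = 0.0021), the acetyl-CoA synthetase gene Acss2 by 1.45 (adjusted p = 0.00136), the ATP citrate lyase gene Acly by 1.19 (adjusted p = 0.00589) and the fatty acid synthase gene Fasn by 1.13 (adjusted p = 0.00356). In HFD+As against HFD, 6 of the 10 fell, where 3.25% of all genes were called lower, and in LFD+As or HFD against LFD 0 passed with limma. Fasn was at -0.44 in LFD+As (adjusted p = 1) and at -0.041 in HFD (adjusted p = 0.965).

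Genes for known regulators of the family moved in both directions. Of 14 tested, 6 fell and 1 rose in HFD+As against LFD. The ChREBP gene Mlxipl fell by 1.22 (adjusted p = 0.0021), the SREBP-1 gene Srebf1 by 1.14 (adjusted p = 0.00125), Insig1, which retains SREBPs in the endoplasmic reticulum, by 0.73 (adjusted p = 0.0039), and Scap, their escort protein, by 0.71 (adjusted p = 0.00514). Srebf1 read 11.01 and 10.96 in the LFD pools, 10.32 and 10.71 in those of LFD+As, 10.59 and 10.40 in those of HFD, and 9.79 and 9.90 in those of HFD+As. Srebf1 lay lower than LFD in both single exposures without overlap, at -0.47 (adjusted p = 0.707) and -0.49 (adjusted p = 0.195), neither of which passed. So did 15.8% of all tested genes in LFD+As and 16.5% in HFD. The 1 gene that rose, named here after its value was seen, was Nr1h3, which encodes the liver X receptor alpha that activates Srebf1 (0.56, adjusted p = 0.0114). Srebf2, the sterol-regulating paralog, stood at -0.25 (95% confidence interval -0.51 to 0.0070, adjusted p = 0.173).

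Acyl-CoA synthetases and acyltransferases, which activate fatty acids and place them into lipids, fell in 5 of 9 cases. Gpam, the glycerol-3-phosphate acyltransferase of mitochondria, fell by 0.79 (adjusted p = 0.0186), Slc27a5 by 0.68 (adjusted p = 0.00809), Acsl5 by 0.67 (adjusted p = 0.0105) and the arachidonate-preferring Acsl4 by 0.64 (adjusted p = 0.0352). Lpcat3, which puts polyunsaturated chains into phosphatidylcholine, fell by 0.59 (adjusted p = 0.013).

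**Figure D5:**
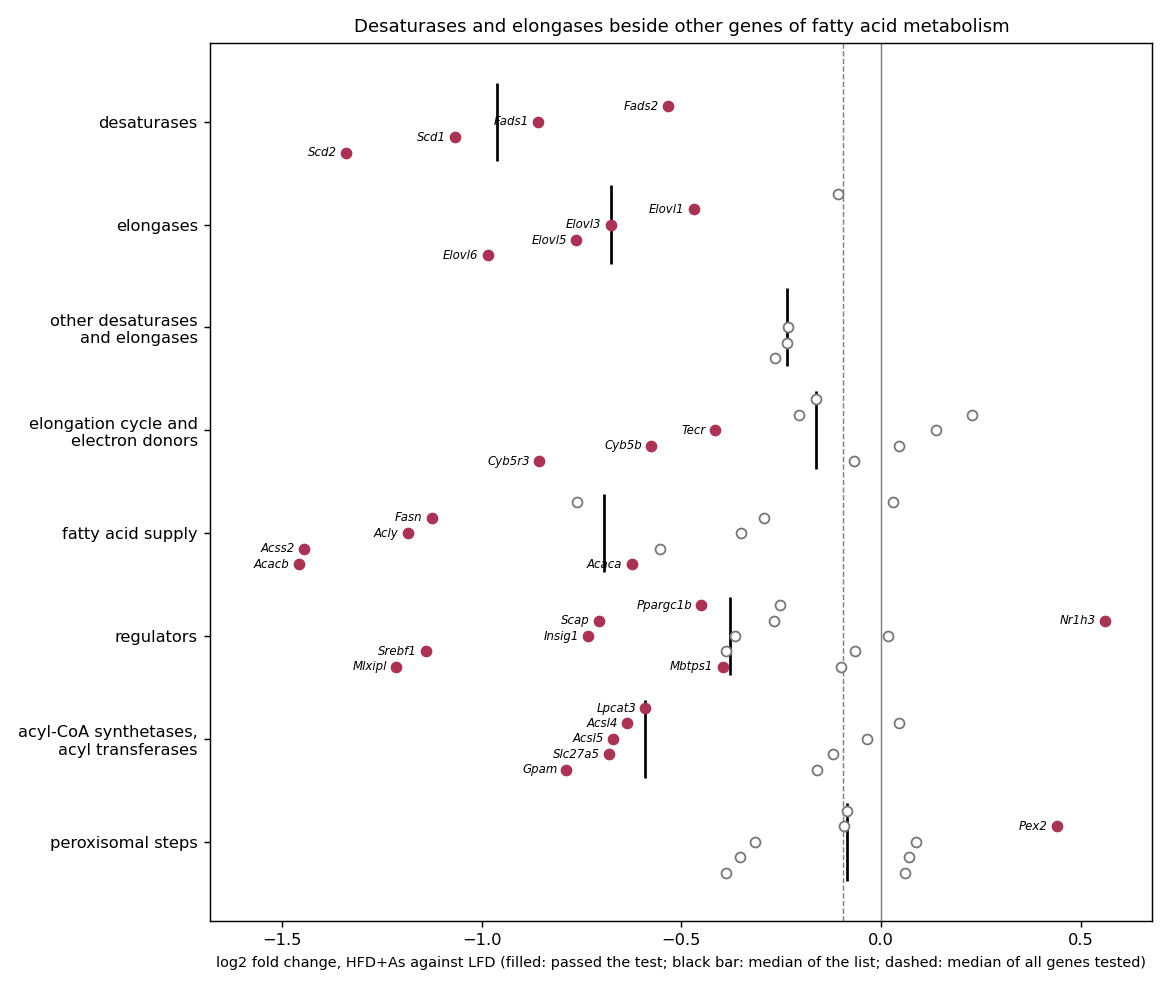
Log2 fold change in HFD+As against LFD (x axis) for the tested genes of 8 lists (y axis). Filled, named points passed the adjusted threshold, black bars are list medians, and the dashed line is the median of all tested genes at -0.10. The desaturase, elongase, fatty acid supply and acyl-CoA lists have medians between -0.96 and -0.59, whereas the peroxisomal list lies near the median of all genes.

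Markers of liver cell types were set beside these comparisons. In HFD+As against LFD, 12.4% of all tested genes were called lower and 3.59% called higher. The log2 of the summed hepatocyte marker signals was 16.69 in both LFD pools and between 16.58 and 16.64 in HFD+As, with 1 of 7 markers, Cps1, called lower. Of 8 sinusoidal endothelial markers 5 fell in HFD+As against LFD, among them Stab2 (-0.91, adjusted p = 0.0042), and the summed level went from between 12.87 and 13.02 to between 12.63 and 12.79. Stellate markers summed to between 13.29 and 13.32 in LFD and 13.02 in both HFD+As pools. Of these 8 markers 1 was called lower, a share near that of all genes. Single genes lay below LFD without overlap in 41.4% of cases. The stellate sums were between 13.21 and 13.25 in LFD+As and between 13.23 and 13.24 in HFD. Cholangiocyte sums were 9.51 and 9.53 in HFD+As and between 9.69 and 9.99 in the other groups. Lymphocyte sums in HFD+As overlapped those of every other group. Exocrine pancreas sums in HFD+As, 9.58 and 9.62, lay above those of LFD+As and HFD. Macrophage markers gave 1 called lower and 1 called higher of 12 in HFD+As against LFD, and their sums overlapped between these 2 groups. In HFD+As against HFD, 3 of the 12 macrophage markers fell, namely Cd163 (-0.62, adjusted p = 0.0416), Adgre1 and Cd5l, where 3.25% of all genes were called lower. Of the 12, 11 were negative, as were 72.3% of all genes, with a median of -0.42 beside -0.13 over all genes. Their summed level was between 13.60 and 13.70 in HFD and between 13.09 and 13.43 in HFD+As, without overlap. Single genes lay lower without overlap in 45.8% of cases. In that comparison 1 of 8 endothelial markers fell, and against LFD+As 4 of 8 fell, where 8.43% of all genes were called lower. Hepatocyte markers gave 0 of 7 called by limma in both comparisons (0 and 1 at an unadjusted p under 0.05), with medians of -0.046 and -0.051. Of 8 adipocyte markers 3 were bright enough to be tested and 0 passed with limma (1 at an unadjusted p under 0.05, Pnpla2, at -0.39), and the adipocyte hormone genes Adipoq and Lep lay between 5.36 and 6.09 on all arrays, below the lowest mean tested, 6.97. The part of these cells in the results on desaturases and elongases was not tested.

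Among all other tested genes, those nearest in pattern to the members were found by the root mean square difference of their deviations over the 8 arrays. Fads1 was the nearest of all to Scd1 (0.101 log2 units), followed by Itih5 (0.113) and Pank1 (0.124). Pank1, a pantothenate kinase of coenzyme A synthesis, was also the nearest to Fads1 (0.0726). Nearest to Elovl5 was Pgrmc2 (0.0991), with Fads1 second (0.134), and nearest to Elovl6 was Gpam (0.128), the acyltransferase gene described above. The gene closest to Fads2 was Celsr1 (0.0626), to Elovl1 it was Ap1ar (0.0262), to Elovl3 it was Gatm (0.107), and to Scd2 it was Mr1 (0.233), the largest of these distances. A small distance is easily reached by genes that vary little, such as Elovl1, and the pools give only 4 conditions, so these are descriptions of likeness in 8 arrays.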

How the data were processed

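RNA from pools of 5 mouse livers was hybridised to Affymetrix Mouse Gene 1.0 ST arrays, 2 pools per group and 8 arrays in all. The authors deposited log2 signals per transcript cluster, and the submitters' processing notes name Affymetrix Expression Console 1.0. The background correction, normalization, genome build and scanner values are not given in the sources used here. Detection calls were not used here, so no background level is known for dim genes, and the number of arrays limits the precision (median SE of a pairwise difference 0.127).

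Signals were used as deposited. Of the 35556 clusters, 21789 had 1 gene symbol in the platform annotation, 1621 had several and 12146 had none. The cluster with the highest mean stood for a gene, and the 60% of genes with the highest means were tested by limma (3.58.1, R 4.3.3), with 4 group means fitted to all 8 arrays (4 residual and 9.32 prior degrees of freedom). P-values were adjusted by Benjamini-Hochberg over all 11963 genes within each comparison, with a threshold of 0.05. The script was tested on simulated data. Promoter windows came from RefSeq (GRCm38.p6).

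The members and the gene lists were chosen with earlier results of these data known. Named genes are all members; up to 4 called genes per list with the largest change, or up to 2 with the smallest p as values; Srebf1, Srebf2, Mlxipl, Insig1, Fasn and Lpcat3; and the 3 nearest patterns per called member. Alternatives were the normalization, centring, filter, cluster choice, variance moderation, arrays in the fit, a replicate block, removal of the trend along gene span, array weights, and leaving out each array. Same-numbered pools deviated together little (correlations of replicate differences between groups from -0.217 to 0.179), and the sources do not say whether the numbers pair pools.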

Additional observations from a re-analysis of the deposited data

How the results depend on the processing

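The precision is limited by 2 pools per group, and signal over background is unknown. Among the values of the 9 members, no alternative reversed a called direction. Without any 1 array the number of genes called ranged from 0 to 26 for LFD+As against LFD (8 with all arrays), 0 to 72 for HFD against LFD (55), 206 to 2050 for HFD+As against LFD (1909), 24 to 1121 for HFD+As against HFD (434), 17 to 1481 for HFD+As against LFD+As (1227), 0 to 23 for the interaction (0), 87 to 1496 for the average diet effect (915) and 1 to 145 for the average arsenite effect (68). Members called ranged in the same order from 0 to 1, 0 to 1, 4 to 8, 2 to 6, 0 to 7, 0 to 1, 0 to 4 and 0 to 4.

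With all 35556 clusters as features, limma called 0 genes in all 8 comparisons (6186 at an unadjusted p under 0.05 for HFD+As against LFD), so 0 members were called. Without the filter on low signals, calls numbered 1 for LFD+As, 13 for HFD and 1084 for HFD+As against LFD, 29 against HFD, 165 against LFD+As with 2 members, 172 for diet with 0 members and 8 for arsenite with 1 member. With arrays centred on the median they numbered 5 for LFD+As and 1013 for HFD+As against LFD, 125 against HFD, 214 against LFD+As with 2 members, 337 for diet with 2 members and 32 for arsenite with 2 members. Quantile normalization gave 5 for LFD+As against LFD, 104 for HFD+As against HFD and 15 for arsenite with 1 member. Array weights gave 22 for HFD and 1118 for HFD+As against LFD, 49 for HFD+As against HFD, 33 for arsenite with 1 member, and 2 members for diet. Trended and robust moderation gave 751 for HFD+As against HFD, 128 for arsenite, and 17 with 3 members for the interaction, for which the top 40% of genes gave 6. Removing the span trend gave 241 for HFD+As against HFD, 432 against LFD+As and 505 for diet. Fitting the compared arrays alone gave 18 for LFD+As against LFD. The causes were not tested.

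The sources used here do not say whether the replicate numbers pair the pools. With the number as a replicate block, 230 genes were called for HFD+As against HFD and 1691 with 8 members for HFD+As against LFD. Among called genes, the share called lower was 61.0% for diet and 39.2% with arrays centred, 77.9% for arsenite and 60% after quantile normalization, and 25.5% for HFD against LFD and 36.6% after quantile normalization.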

Other observations

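Peroxisomes carry out the last step of docosahexaenoic acid synthesis, after Elovl2 and Fads2. Of 9 tested peroxisomal genes 0 fell and 1 rose in HFD+As against LFD, beside 12.4% of all genes called lower and 3.59% called higher. The list's median was -0.086, beside -0.10 over all genes. The gene that rose was Pex2, a peroxisome assembly factor (0.44, SE 0.12, limma adjusted p = 0.0251). Abcd3, a peroxisomal fatty acid transporter, stood at -0.41 in HFD+As against HFD (adjusted p = 0.076).

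Elovl3 is known as a clock-controlled and male-biased liver gene, and both kinds of gene were measured beside it. Of 12 clock genes 1 fell in HFD+As against LFD, Nr1d1 by 0.98 (SE 0.27, limma adjusted p = 0.0276), and the list's median was -0.093. In HFD+As against LFD+As the clock output gene Dbp was higher by 0.78 (adjusted p = 0.0473) and Clock was lower, at -0.52 (adjusted p = 0.0239). The time of day at which livers were taken is not given in the sources used here. Of 11 tested male-biased genes, Elovl3 itself was the 1 that fell in HFD+As against LFD, beside 12.4% of all genes called lower. In HFD+As against LFD+As 3 of the 11 fell, Elovl3 and the complement genes C8a (-0.59, adjusted p = 0.0252) and C6 (-0.50, adjusted p = 0.0381), beside 8.43% of all genes. In HFD+As against HFD, C8a was the 1 that fell (-0.59, adjusted p = 0.0408), beside 3.25%.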
